A study of Drosophila melanogaster with 4 samples.

Results

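The genes described here are the 6 *Hsp70* copies of *D. melanogaster*, their close relative *Hsp68*, the Hsp90 gene *Hsp83*, and the co-chaperone genes *DnaJ-1* and *stv*. They were chosen by name, and all 10 were found by their locus tags among the genes of the count matrices, so that 10 of 17772 genes are described. Exposed flies were Canton S (B) adults kept on medium with 250 µM sodium arsenite (NaAsO2) for 6 days, and control flies were of the same strain and age on the same medium without it. Exposure began a few days after eclosion, no transgene was involved, and each library held the nuclei of 10 pooled brains. There were 4 libraries, 1 each of exposed females, control females, exposed males and control males. No difference between libraries therefore has a replicate check, no p-value is given, and every interval covers the error of counting molecules and nothing else.

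Heat shock proteins are molecular chaperones: they bind unfolded proteins, keep them from clumping and help them fold again. In the heat shock response the transcription factor Hsf, which is held inactive by chaperones in unstressed cells, is released by misfolded protein and turns on the chaperone genes, *Hsp70* above all. Arsenite binds thiol groups of proteins and is a classical inducer of this response in fly cells. J-domain proteins such as DnaJ-1 deliver unfolded proteins to Hsp70 and drive its ATPase, Starvin (*stv*) is a BAG domain protein that helps Hsp70 release its nucleotide, and Hsp83 is the cytosolic Hsp90, which folds kinases and receptors and is abundant without stress.

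Nuclear RNA was counted in droplets, where each transcript molecule carries a unique molecular identifier (UMI). Levels are given as CPM, the UMIs of a gene for every 1000000 UMIs of the library. The libraries of exposed females, control females, exposed males and control males held 25332, 19188, 10000 and 14895 nuclei and 45357480, 53360256, 34292066 and 33235404 UMIs. The median was 1374 UMIs per nucleus in exposed and 2222 in control females, and 2665.5 in exposed and 1827 in control males. The library of exposed males held no nucleus under 1766 UMIs, whereas the lowest was 500 in the others. Between 1.24% and 1.75% of the nuclei of a library had a barcode that another library also held, and without these nuclei the log2 ratio of *Hsp83*, the most abundant of the 10 genes, was -0.57 in females and -2.16 in males. The sexes matched their labels: *roX1*, the male dosage compensation RNA, was at 115 and 93.9 CPM in the female libraries of exposed and control flies and at 22102 and 16386 CPM in the male ones. The neuronal genes *elav* and *nSyb* were between 561 and 1039 CPM, and the glial gene *repo* was between 21.1 and 27.8 CPM. Glia differed between the male libraries: the summed markers of cortex and chiasm glia were at 1414 CPM in exposed and 4549 CPM in control males, a list of 3 general glial markers at 157 and 269 CPM, and glial clusters held 1362 of 10000 and 3928 of 14895 nuclei. In females the 3 markers were at 246 CPM in exposed and 257 CPM in control flies. Across all genes with at least 100 UMIs in a sex, the median log2 ratio of exposed over control was 0.084 in females and -0.22 in males, and values set against this median gene are named as such.

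Of the 10 genes, 6 had at least 100 UMIs over both libraries of females and 5 over both of males, and none of these was at least 1.5-fold higher in exposed flies. Below that minimum, *Hsp70Aa* and *Hsp70Ba* in males rest on 7 and 5 UMIs in exposed and 3 and 3 in control flies, and no direction is read from such counts. *Hsp70Bc* in males fell just short of the minimum and was not lower. It had 53 UMIs in exposed and 46 in control males, a log2 ratio of 0.16 (-0.44 to 0.76). Of the 6 genes in females, all had lower CPM in exposed than in control flies, and of the 5 in males likewise all. Over all genes with that many UMIs, 30.9% were lower in exposed females and 69.4% in exposed males, and 18.3% were lower in both sexes. *DnaJ-1* was at least 1.5-fold lower in exposed females, and *Hsp83* and *Hsp68* were in exposed males. Among all genes, 4.89% were at least 1.5-fold higher in exposed females and 0.717% at least 1.5-fold lower, and in exposed males 2.82% were higher and 22.8% lower. Lower genes were thus rare in females and common in males. Relative to the median gene, *DnaJ-1* and *Hsp83* were at least 1.5-fold lower in exposed females, where 0.974% of all genes were, and *Hsp83* in exposed males, where 12.4% were. At 2-fold, none of the genes with at least 100 UMIs was lower in exposed females (0.269% of all genes) and *Hsp83* was in exposed males (7.03%).

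**Figure D1:**
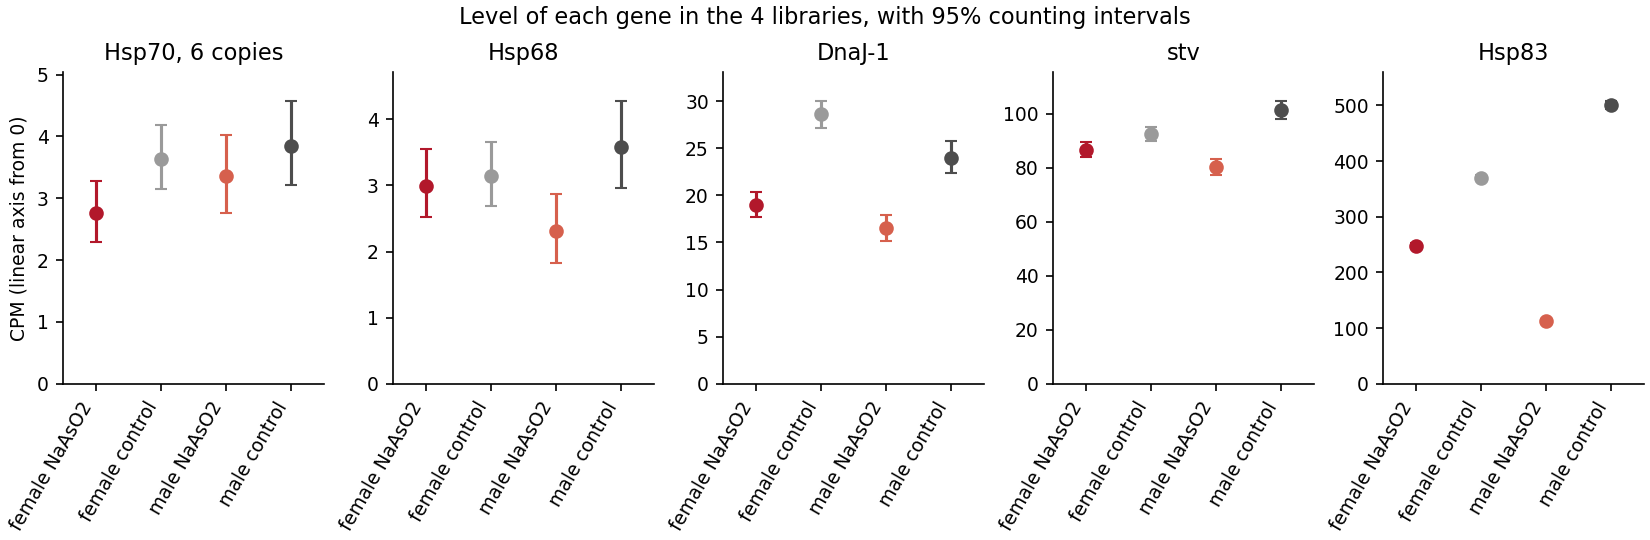
CPM of the 6 *Hsp70* copies summed, *Hsp68*, *DnaJ-1*, *stv* and *Hsp83* in the libraries of exposed females, control females, exposed males and control males, with bars for the exact 95% counting interval and every axis starting at 0. *Hsp83* stood at 248 and 112 CPM in the exposed libraries, below the 370 and 501 CPM of the controls. The intervals of *Hsp70* overlapped within each sex, although that of its log2 ratio in females (-0.74 to -0.07) lay below 0.

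The *Hsp70* genes encode the main heat-inducible chaperone and lie in 2 clusters on chromosome 3R (release 6 coordinates). *Hsp70Aa* (locus tag Dmel_CG31366, 11954163 to 11956544, minus strand) and *Hsp70Ab* (Dmel_CG18743, 11958535 to 11960909, plus strand) point away from each other with 1990 bp between them. The other cluster holds *Hsp70Ba* (Dmel_CG31449, 12465453 to 12467776, minus strand), *Hsp70Bbb* (Dmel_CG5834, 12502510 to 12504856), *Hsp70Bb* (Dmel_CG31359, 12505793 to 12508139) and *Hsp70Bc* (Dmel_CG6489, 12509076 to 12511461), the last 3 in a row on the plus strand with 936 bp between neighbours. All 6 are annotated with a single exon and lengths between 2324 and 2386 bp. The copies are nearly identical in sequence, and Cell Ranger counts only reads that it can assign to a single gene. The split between copies is therefore uncertain, and the sum is safer than the value of any copy. Reads that match several copies are missing from the sum too, so that it may lie below the true level of *Hsp70*.

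Summed over the 6 copies, *Hsp70* had few assigned UMIs in every library. Exposed females had 125 UMIs (2.76 CPM, 95% counting interval 2.29 to 3.28), against 194 UMIs (3.64 CPM, 3.14 to 4.18) in control females. Exposed males had 115 UMIs (3.35 CPM, 2.77 to 4.03), against 128 UMIs (3.85 CPM, 3.21 to 4.58) in control males. The log2 ratio of exposed over control was -0.40 in females (-0.74 to -0.07) and -0.20 in males (-0.58 to 0.18). The upper bounds are equal to a 0.954-fold level in exposed females and a 1.13-fold level in exposed males. On the CPM scale, an induction above 1.13-fold of the UMIs assigned to a copy thus lay outside the counting interval in both sexes. Relative to the median gene the female value was -0.48 (-0.82 to -0.15). The male value was 0.019, and so its direction depended on the scale. Per nucleus rather than per UMI it was 0.42, with 0.0115 UMIs per nucleus in exposed and 0.00859 in control males.

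Most counts were on a pair of copies. *Hsp70Ab* and *Hsp70Bc* together held 496 of the 562 *Hsp70* UMIs of the 4 libraries (88.3%). *Hsp70Bc* had 70 UMIs in exposed and 105 in control females, and 53 in exposed and 46 in control males. *Hsp70Ab* had 45 UMIs in exposed and 72 in control females, and 43 in exposed and 62 in control males. For both copies the counting interval of the log2 ratio spanned 0 in each sex. The 3′ end of *Hsp70Ab* overlaps that of *CG3281* on the other strand by 27 bp, and *Hsp68* and *Hsp83* overlap opposite genes by 13 and 15 bp. Whether strand was used in counting is not given in the sources used here.

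The other copies were sparse. *Hsp70Bb* had 7 UMIs in exposed females, 7 in control females, 7 in exposed males and 14 in control males. *Hsp70Aa* had 1, 8, 7 and 3 UMIs in the same order of libraries, and *Hsp70Ba* had 2, 2, 5 and 3. *Hsp70Bbb*, which is annotated with the same length as *Hsp70Bb* (2347 bp), had no UMI in any library. A floor of 3 UMIs would be 0.0661 CPM in exposed and 0.0562 in control females and 0.0875 in exposed and 0.0903 in control males, and it applies only to reads that could be told from those of the other copies. The share of *Hsp70Bc* among the copies was 56.0% in exposed females (exact binomial interval 46.8 to 64.9), 54.1% in control females (46.8 to 61.3), 46.1% in exposed males (36.8 to 55.6) and 35.9% in control males (27.7 to 44.9).

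**Figure D2:**
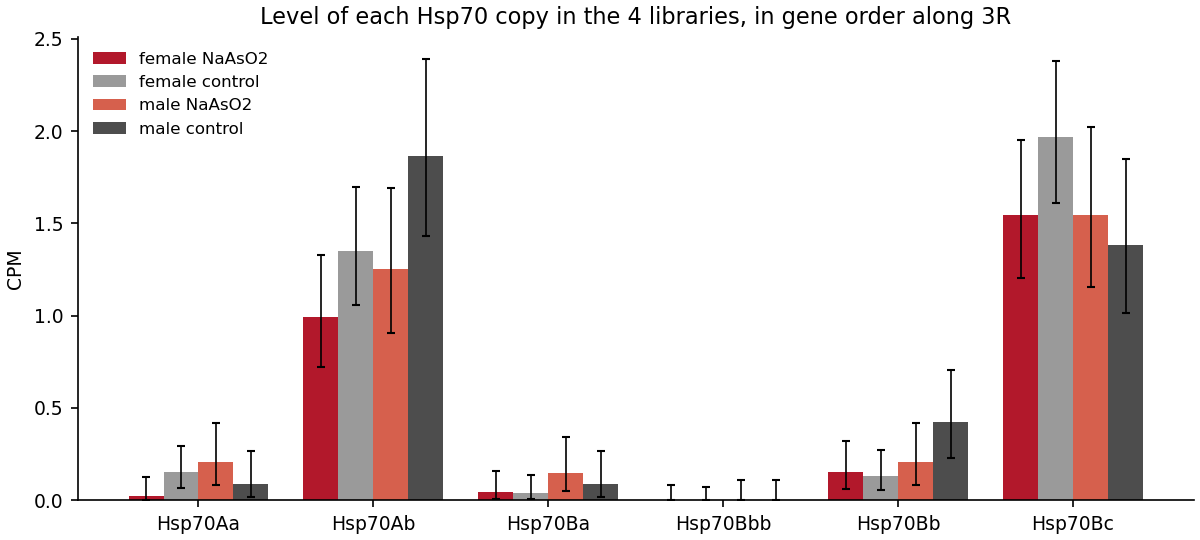
CPM of each *Hsp70* copy, in gene order along 3R, as bars from 0 with exact 95% counting intervals, for exposed females, control females, exposed males and control males from left to right. *Hsp70Ab* and *Hsp70Bc* carried 88.3% of all *Hsp70* UMIs and *Hsp70Bbb* none.

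*Hsp68* (Dmel_CG5436, 3R, 24055080 to 24057310, minus strand, a single exon) encodes a further heat-inducible protein of the Hsp70 family. It had 136 UMIs (3.0 CPM) in exposed and 168 UMIs (3.15 CPM) in control females, and the log2 ratio of -0.070 (-0.41 to 0.26) did not exceed the counting error. Exposed males had 79 UMIs (2.30 CPM), against 119 UMIs (3.58 CPM) in control males, with a log2 ratio of -0.64 (-1.07 to -0.21), or -0.42 relative to the median gene (-0.85 to 0.0051). The interval in males excluded 0 before the shift of the median gene was taken off and reached it afterwards. Per nucleus the male log2 ratio was -0.016, with 0.0079 UMIs in exposed and 0.00799 in control males, which is no longer past 1.5-fold.

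*Hsp83* (Dmel_CG1242, 3L, 3192969 to 3197059, plus strand, with 1 intron) showed the largest difference of the 10 genes in males. It had 11257 UMIs (248 CPM, 244 to 253) in exposed females and 19764 UMIs (370 CPM, 365 to 376) in control females. Exposed males had 3838 UMIs (112 CPM, 108 to 116), against 16657 UMIs (501 CPM, 494 to 509) in control males. The level in exposed flies was 0.670-fold that of controls in females (0.655 to 0.686) and 0.223-fold in males (0.216 to 0.231), as log2 ratios -0.58 and -2.16. In females 64 of the 8930 genes tested had a lower ratio than *Hsp83*, and in males 74 of 8583.

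The order of the sexes for *Hsp83* turned with treatment. In exposed flies the female library was 2.22-fold above the male one (248 and 112 CPM, log2 ratio 1.15, interval 1.1 to 1.2). In control flies the female library was at 0.739-fold the male one (370 and 501 CPM, log2 ratio -0.44, -0.47 to -0.41). The female log2 ratio of exposed over control exceeded the male one by 1.59 (1.52 to 1.65), and by 1.28 when each sex was set against its median gene. With 1 library for each sex and treatment, sex, treatment and library cannot be told apart in this difference. The library of exposed males also differed from the others in its lowest UMI total, and among nuclei of at least 1766 UMIs in all libraries the log2 ratio of *Hsp83* was -0.51 in females and -2.18 in males.

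*DnaJ-1* (Dmel_CG10578, 3L, 5750029 to 5752189, minus strand), the major heat-inducible J-domain partner of Hsp70, was lower in both sexes. It had 862 UMIs (19.0 CPM, 17.8 to 20.3) in exposed and 1526 UMIs (28.6 CPM, 27.2 to 30.1) in control females. In males it had 567 UMIs (16.5 CPM, 15.2 to 18.0) in exposed and 798 UMIs (24 CPM, 22.4 to 25.7) in control flies. The log2 ratios were -0.59 in females (-0.71 to -0.47) and -0.54 in males (-0.70 to -0.38), and they differed between the sexes by -0.051 (female minus male, -0.25 to 0.15). Relative to the median gene they were -0.67 and -0.32. Per nucleus the male value turned, with 0.0567 UMIs in exposed and 0.0536 in control males (log2 ratio 0.082), and the nuclei of exposed males carried more UMIs in all.

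*stv* (Dmel_CG32130, 3L, 13477541 to 13483515, plus strand, 7 annotated transcripts) differed little in females. Exposed females had 3929 UMIs (86.6 CPM, 83.9 to 89.4), against 4927 UMIs (92.3 CPM, 89.8 to 94.9) in control females. Exposed males had 2755 UMIs (80.3 CPM, 77.4 to 83.4), against 3370 UMIs (101 CPM, 98.0 to 105) in control males. The log2 ratios were -0.092 (-0.15 to -0.031) in females and -0.34 (-0.41 to -0.26) in males, and -0.18 and -0.12 relative to the median gene. Counted per nucleus, the male ratio was 0.28. To set the genes side by side, levels were divided by length. Per kb of annotated exons, *Hsp83* was at 83.8, 125, 37.8 and 169 CPM in exposed females, control females, exposed males and control males, *stv* at 21.9 to 27.6, *DnaJ-1* at 7.65 to 13.2, *Hsp68* at 1.03 to 1.60 and no *Hsp70* copy above 0.825. *Hsp83*, *stv*, *DnaJ-1* and *Hsp68* had this order in each of the 4 libraries, and no order is read between *Hsp68* and the sum of the *Hsp70* copies. UMIs are tagged at the 3′ end of transcripts, so that length may overcorrect. Whether reads in introns were counted is not given in the sources used here, and this bears on *Hsp83* and *stv*, which have introns, and not on *Hsp68* and *Hsp70*.

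**Figure D3:**
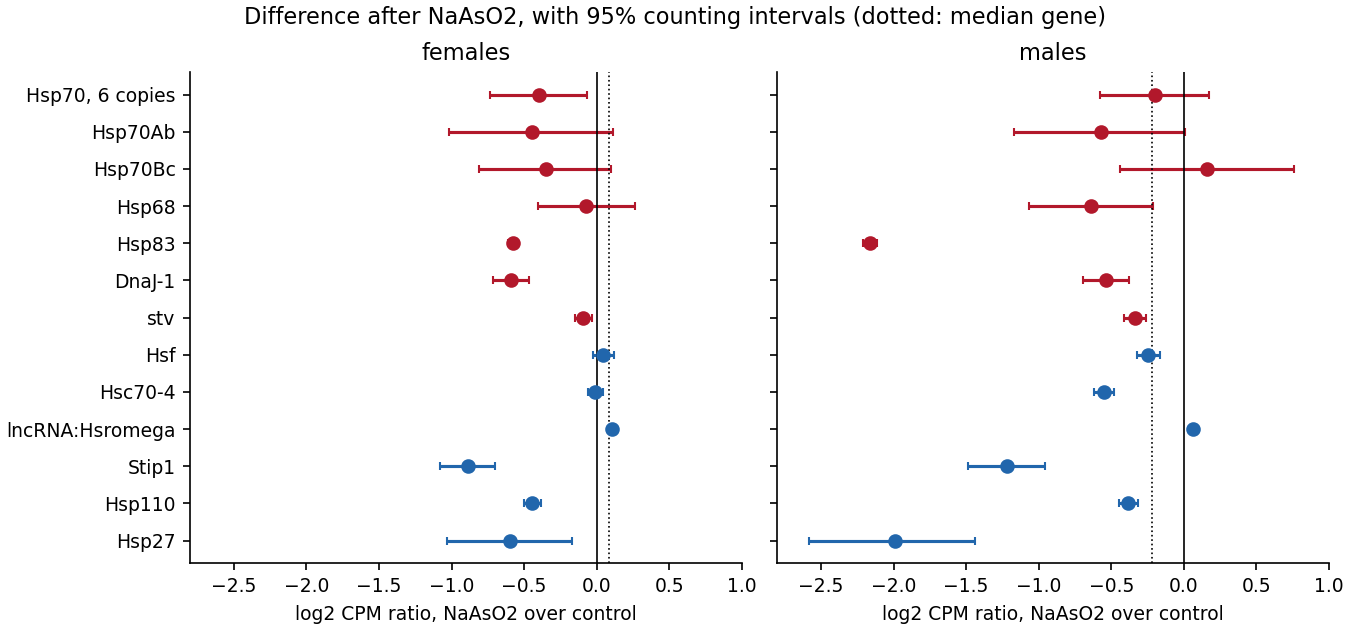
Log2 ratio of CPM, exposed over control, in females (left) and males (right), with exact 95% counting intervals. Red points are the summed *Hsp70* copies, the 2 copies with most UMIs, *Hsp68*, *Hsp83*, *DnaJ-1* and *stv*, and blue points genes of the wider chaperone lists, with a dotted line at the median gene (0.084 in females, -0.22 in males). *Hsp83* in males (-2.16) lay furthest from the line among the red points plotted, and no red point lay above 0 with its whole interval.

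Few nuclei carried more than a single UMI of *Hsp70*. A UMI of any copy was found in 0.474% of the nuclei of exposed and 0.959% of control females, and in 0.980% of exposed and 0.759% of control males. Since deeper nuclei show more genes, each nucleus was also thinned to 1000 UMIs, which left out 7013 nuclei of exposed females, 1718 of control females and 2417 of control males and none of exposed males. After thinning, 0.197% of the nuclei of exposed females (0.138 to 0.272) and 0.292% of control females (0.217 to 0.384) had an *Hsp70* UMI, and 0.360% of exposed (0.252 to 0.498) and 0.361% of control males (0.263 to 0.482). The intervals overlapped in both sexes. No class of nuclei known to lack these genes was at hand to show the background of free RNA. The 72, 52, 29 and 104 photoreceptor-like nuclei of exposed females, control females, exposed males and control males held no UMI of *Hsp70* or *Hsp68*.

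For *Hsp83* the lower level was spread over many nuclei. Thinned nuclei with an *Hsp83* UMI made up 20.3% in exposed (19.7 to 20.9) and 29.9% in control females (29.3 to 30.6). In males they made up 9.57% of exposed (9.0 to 10.2) and 37.9% of control nuclei (37.0 to 38.7). Unthinned, the shares were 29.5% and 53.7% in exposed and control females, and 26.8% and 56.0% in exposed and control males. The 10 nuclei with most *Hsp83* UMIs held between 2.08% and 4.04% of a library's *Hsp83* UMIs. For *DnaJ-1*, 1.79% of thinned nuclei of exposed and 2.79% of control females had a UMI, and 1.53% of exposed and 2.23% of control males. Thinned nuclei with a UMI of *stv* were 7.84% in exposed and 8.36% in control females, and 7.48% in exposed and 9.22% in control males.

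Nuclei were clustered without the chaperone genes and named from marker genes, which gave 15 classes, some of them without a named cell type. The class with no cell type, neuronal or glial label, called unnamed here, held 1081 of 10000 nuclei of exposed males. It held 102 of 14895 in control males, 90 in exposed females and 334 in control females. In exposed males it held 19 of the 79 *Hsp68* and 115 of the 567 *DnaJ-1* UMIs. Among classes of exposed brains the highest *Hsp83* level was 2.52-fold the lowest in females and 5.42-fold in males, against 1.40-fold and 1.59-fold in control females and males. The 5.42-fold spread rests on the plasmatocyte-like class of exposed males, which was at 109 CPM with 30 principal components in the clustering, and the next class, perineurial glia-like nuclei, was at 175 CPM. In exposed females it lay between 150 CPM in cortex and chiasm glia-like and 376 CPM in plasmatocyte-like nuclei, and in exposed males between 85.9 CPM in mixed neuronal and glial and 465 CPM in plasmatocyte-like nuclei. In control females it lay between 312 CPM in cortex and chiasm glia-like nuclei and 435 CPM in an unnamed class, and in control males between 351 CPM in cortex and chiasm glia-like and 558 CPM in perineurial glia-like nuclei.

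On the CPM scale *Hsp83* was lower in exposed than in control flies in all 15 classes of either sex. The interval was below 0 in 11 classes of females and 14 of males. In plasmatocyte-like nuclei of females the levels were close, at 376 CPM in exposed and 380 CPM in control flies. With 30 components this class was higher in exposed females, at 395 against 385 CPM, with overlapping intervals. Per nucleus *Hsp83* was higher in exposed flies in the unnamed class of females (1.367 and 0.778 UMIs) and in plasmatocyte-like nuclei of males (1.722 and 1.096). It was lower in every other class. Over all neuronal clusters it was at 251 CPM in exposed and 373 CPM in control females, and at 97.6 CPM in exposed and 522 CPM in control males. Over all glial clusters it was at 208 CPM in exposed and 356 CPM in control females, and at 116 CPM in exposed and 443 CPM in control males. The log2 ratio of glia minus that of neurons was -0.21 in females (-0.31 to -0.11) and 0.49 in males (0.34 to 0.63). On the CPM scale the difference after arsenite was thus larger in glia than in neurons in females and smaller in males. Per nucleus the order in females turned, with 0.403 UMIs in exposed and 0.858 in control glia, and 0.429 and 1.06 in neurons. Among glial classes of females, only cortex and chiasm glia-like and subperineurial glia-like nuclei differed from neurons with an interval that excluded 0. Kenyon cell-like nuclei, the intrinsic neurons of the mushroom body, had a log2 ratio of -0.66 in females and -2.41 in males. In cortex and chiasm glia-like nuclei the values were -1.06 and -1.96. Among glia of the blood-brain barrier, perineurial glia-like nuclei had -0.70 and -1.67 and subperineurial glia-like nuclei -0.88 and -1.63.

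**Figure D4:**
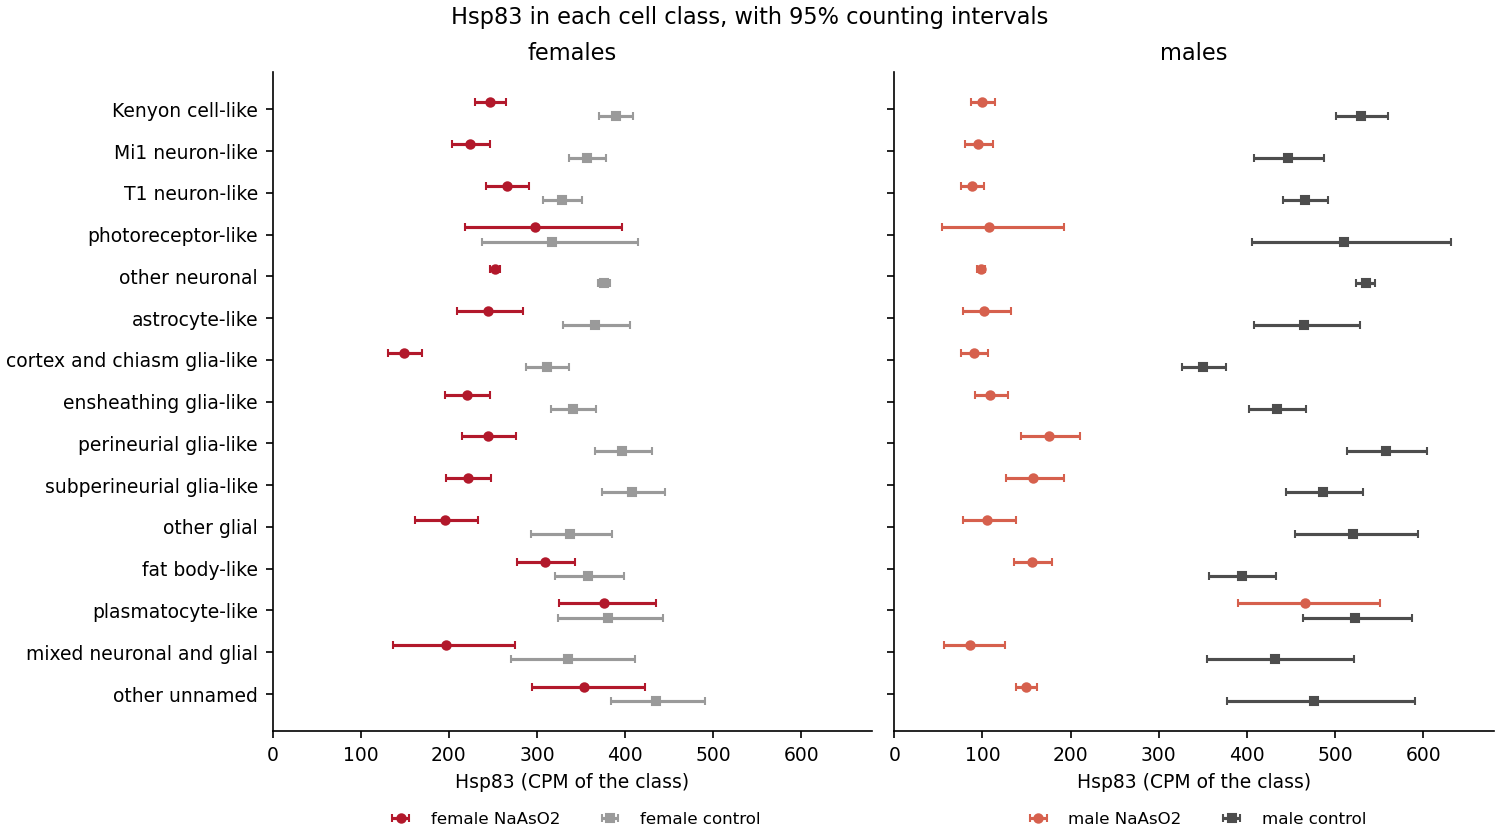
*Hsp83* in CPM of each cell class, females on the left and males on the right, exposed flies as circles above control flies as squares, with exact 95% counting intervals. The exposed circles lie to the left of the control squares in all 15 classes, and in males the intervals overlap only for plasmatocyte-like nuclei (465 and 523 CPM).

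Plasmatocyte-like nuclei were the exception in size among classes of males, and those of exposed males held a set of nuclei with few plasmatocyte markers. *Hsp83* was at 465 CPM (136 UMIs) in these 79 nuclei and at 523 CPM (286 UMIs) in the 261 of control males. The log2 ratio of -0.17 (-0.47 to 0.13) exceeded that of all neuronal clusters by 2.25 (1.95 to 2.55). In plasmatocyte-like nuclei of females it was -0.014 (-0.32 to 0.30), above all neuronal clusters by 0.56 (0.25 to 0.86). The 10 nuclei with most *Hsp83* UMIs held 76.5% of the UMIs in exposed and 23.1% in control males. Of the 79 nuclei, 6 had an *Hsp70* UMI, and these 6 held 12 *Hsp70*, 76 *Hsp83* and 7 *DnaJ-1* UMIs (2776 CPM of *Hsp83*), against 227 CPM of *Hsp83* in the other 73. The summed plasmatocyte markers were at 475 CPM in the 6 nuclei and at 12892 CPM in the 73. With 30 instead of 10 principal components 26 of the 79 nuclei, all 6 among them, were in the fat body-like class. The log2 ratio of *Hsp83* in plasmatocyte-like nuclei of males was then -2.34.

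In that alternative the fat body-like nuclei held 22 *Hsp70* UMIs in 11 of 155 nuclei of exposed males (14.0 CPM, 8.76 to 21.2), against 9 UMIs in 7 of 239 nuclei of control males (6.61 CPM, 3.02 to 12.5). In females they held 6 UMIs in 6 of 185 exposed nuclei (4.45 CPM) and 5 UMIs in 4 of 401 control nuclei (3.26 CPM). The intervals overlapped in males. With 10 components the fat body-like class had 9 UMIs in exposed and 8 in control males, and 6 of the 9 came from a single nucleus. Fat body is not brain tissue: it lies around the brain in the head, and the summed fat body markers were at 1151 CPM in exposed and 759 CPM in control females and at 1001 CPM in exposed and 2710 CPM in control males. Their part in the levels of the 10 genes was not tested, and among neuronal clusters alone the log2 ratio of summed *Hsp70* was -0.54 in females (-0.92 to -0.18) and -0.37 in males (-0.83 to 0.09).

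Most *Hsp70* UMIs came from neurons, which were also most of the nuclei. Neuronal clusters held 98 of the 125 UMIs of exposed females (2.67 CPM), 166 of the 194 of control females (3.90 CPM), 72 of the 115 of exposed males (3.11 CPM) and 98 of the 128 of control males (4.01 CPM). Glial clusters held 20 UMIs in exposed and 21 in control females (3.04 and 2.46 CPM), and 4 in exposed and 13 in control males (0.797 and 1.93 CPM). The glial log2 ratio in females was 0.31 (-0.65 to 1.26), and in males the count was under the minimum of 20 set for a class. *Hsp68* in neuronal clusters was at 3.30 CPM in exposed and 3.15 CPM in control females, and at 1.99 CPM in exposed and 3.72 CPM in control males, with log2 ratios of 0.07 (-0.30 to 0.43) and -0.91 (-1.45 to -0.38).

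*DnaJ-1* was lower in 13 of 14 classes of exposed females and in 11 of 13 classes of exposed males with at least 20 UMIs, with an interval below 0 in 5 and 4 classes. Kenyon cell-like nuclei had 16.1 CPM in exposed and 31.3 CPM in control females (log2 ratio -0.96, -1.46 to -0.48), and 10.8 CPM in exposed and 32.0 CPM in control males (-1.57, -2.28 to -0.90). Photoreceptor-like nuclei had the highest *DnaJ-1* in 3 of the libraries, with 10 UMIs in exposed females (64.7 CPM), 16 in control females (95.6 CPM) and 13 in control males (79.8 CPM), while the 29 photoreceptor-like nuclei of exposed males had none. The only interval above 0 was in plasmatocyte-like nuclei of males, with 17 UMIs in exposed and 5 in control flies (log2 ratio 2.67, 1.17 to 4.46), and 7 of the 17 were in the 6 nuclei described above. With 30 components the class held 2 *DnaJ-1* UMIs in exposed and 3 in control males (9.87 and 7.42 CPM), too few for a ratio. For *stv*, 3 classes in each sex had an interval below 0 and 1 class, the Mi1 neuron-like nuclei of females, had one above 0, at 134 CPM in exposed and 113 CPM in control flies (log2 ratio 0.25, 0.0078 to 0.48).

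The wider chaperone machinery was described from a list of 39 genes, of which 36 had at least 100 UMIs in either sex. In exposed females none was at least 1.5-fold higher and 1 was at least 1.5-fold lower (0.717% of all genes), and the list's median log2 ratio was 0.0059, beside 0.084 over all genes. In exposed males none was higher and 22 of 36 were lower, with a median of -0.65 beside -0.22 over all genes, of which 22.8% were lower. These counts depend on the CPM scale. Per nucleus all male log2 ratios are higher by the same amount, which moved that of *DnaJ-1* from -0.54 to 0.082. The counts of this list and of the small heat shock protein genes were not recomputed per nucleus. *Hsf*, the regulator itself, was at 65.9 CPM in exposed and 63.8 CPM in control females and at 70.7 CPM in exposed and 83.9 CPM in control males. The constitutive *Hsc70-4* was at 126 CPM in exposed and 127 CPM in control females and at 90.7 CPM in exposed and 133 CPM in control males. The nuclear RNA *Hsrω*, which gathers splicing proteins after heat shock, was at 17374 CPM in exposed and 16140 CPM in control females, and at 14500 CPM in exposed and 13883 CPM in control males.

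The list's gene past 1.5-fold in both sexes, where 0.282% of all genes were lower by as much, was *Stip1* (also *Hop*), the scaffold that passes client proteins between Hsp70 and Hsp90. It was at 7.43 CPM in exposed and 13.8 CPM in control females (log2 ratio -0.89, -1.08 to -0.70), and at 5.02 CPM in exposed and 11.7 CPM in control males (-1.22, -1.49 to -0.96). *Hsp110*, a nucleotide exchange factor of Hsp70, was at 86.0 CPM in exposed and 117 CPM in control females, and at 106 CPM in exposed and 138 CPM in control males (log2 ratios -0.44 and -0.38). *Sgt*, a co-chaperone that binds Hsp70 and Hsp90 through its repeats, was higher in exposed females, at 29.8 CPM against 20.1 CPM in controls (0.57), and lower in exposed males, at 18.0 CPM against 33.2 CPM in controls (-0.88). In males the largest differences after *Stip1* were those of *Gp93*, the Hsp90 of the endoplasmic reticulum, at 23 CPM in exposed and 48.4 CPM in control flies (-1.07), and the mitochondrial J-domain gene *CG5504*, at 11.7 CPM in exposed and 24.5 CPM in control flies (-1.07).

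Of the 8 small heat shock protein genes, which hold unfolded proteins without using ATP, 6 had at least 100 UMIs in each sex. None was at least 1.5-fold higher in exposed flies, 1 was lower in females (0.717% of all genes) and 5 were lower in males (22.8% of all genes). *Hsp27* was lower in both sexes, at 1.61 CPM in exposed and 2.44 CPM in control females and at 0.991 CPM in exposed and 3.94 CPM in control males. *Hsp23* was at 11.6 CPM in exposed and 10.2 CPM in control females and at 3.41 CPM in exposed and 16.7 CPM in control males. Log2 ratios among the largest of the list were also those of *Hsp26* (0.34) and *l(2)efl* (0.33) in females and *Hsp67Ba* (-1.82) in males, and *Hsp22* had no UMI in any library.

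**Figure D5:**
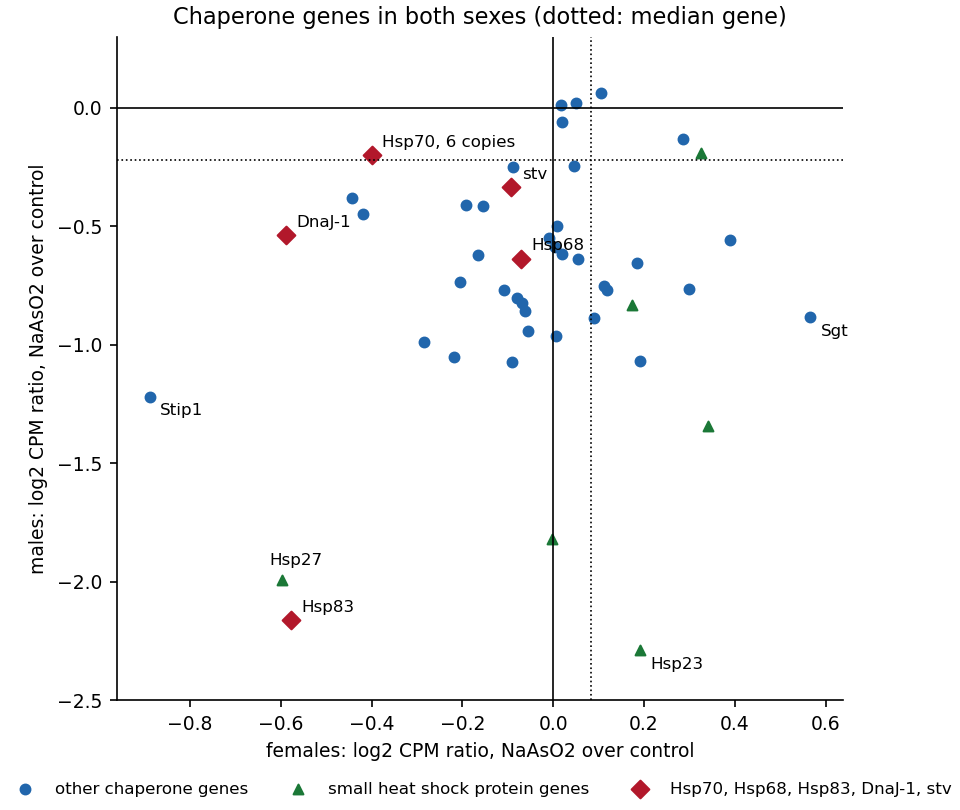
Log2 ratio of CPM, exposed over control, in females (horizontal axis) against males (vertical axis) for the summed *Hsp70* copies, *Hsp68*, *Hsp83*, *DnaJ-1* and *stv* (diamonds), other chaperone genes (circles) and small heat shock protein genes (triangles) with at least 100 UMIs in each sex, with dotted lines at the median gene. *Stip1* (-0.89 and -1.22), *Hsp27* and *Hsp83* lie low in both sexes, and *Sgt* and *Hsp23* lie to the right of 0 in females and below it in males.

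Over 54 sums of a class in a library with at least 200000 UMIs, the genes most like *Hsp83* in log2(CPM + 5), among 6537 genes, were *Vha26* (Pearson r = 0.81), *NUCB1* (0.80), *RNASEK* (0.79), *CG10674* (0.78) and *Grp170* (0.78). Those most like *DnaJ-1* were *mts* (0.64), *adp* (0.64), *Usp14* (0.63), *Afg3l2* (0.63) and *mbf1* (0.63). For the summed *Hsp70* copies they were *Sam-S* (0.72), *CG8389* (0.65), *Gk1* (0.62), *CG1416* (0.60) and *CG18596* (0.60). The *Hsp70* sums rest on few UMIs. The highest, that of plasmatocyte-like nuclei of exposed males, was at 41.1 CPM from 12 UMIs in the 6 nuclei described above. How far the r values of *Hsp70* depend on this sum was not tested. Among the chaperones themselves, *Hsp83* and *DnaJ-1* had r = 0.52 and *Hsp83* and summed *Hsp70* r = 0.19. The sums share libraries and differ in depth, so these values are a description and not independent points.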

How the data were processed

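The authors prepared nuclei from pooled brains with the 10x Genomics 3′ chemistry and aligned the reads to release 6 of the genome. The deposited matrices hold raw UMI counts, without normalization. The submitters' notes give Cell Ranger 3.1 and the file headers 7.0.1, which differ by default in counting intronic reads. Symbols come from RefSeq for 17705 of 17772 locus tags, and coordinates from the Ensembl annotation of release 6, which matched RefSeq for all 10 genes. UMIs were summed per library and class with Python 3.11.15, NumPy 2.4.6 and SciPy 1.17.1. CPM carry exact Poisson intervals, ratios exact conditional binomial intervals and differences of ratios normal approximations, all at 95%, and their width is set by the depth of 33235404 to 53360256 UMIs per library.

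Pearson residuals of 3000 genes, without the chaperone genes, gave 27 clusters (10 components, 20 neighbours, Louvain in igraph 0.11.9). Residuals were clipped at 10 once a first clustering had been inspected. Doublets stayed in, except in an alternative that used Scrublet (scanpy 1.11.5). Other alternatives changed the scaling, the minimum of UMIs, the nuclei kept and the clustering. The 10 genes and all lists were chosen with earlier results of these data known. From the wider lists, genes past 1.5-fold in both sexes and the 3 with the largest absolute ratio in each sex were named, with *Hsf*, *Hsc70-4* and *Hsrω*, and for likeness the 5 with the highest r. In simulated female data with 200 of 8103 genes changed 2-fold, 95.35% of intervals held the true value. The simulated counts were drawn with the Poisson error that the intervals assume. This coverage therefore checks the computation only, and not the spread between nuclei, flies or libraries. Sequences and promoter motifs were not analysed here.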

Additional observations from a re-analysis of the deposited data

How the results depend on the processing

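Of 540 values recomputed under an alternative, 421 were called unchanged, 114 moved, and 5 changed sign although the reported interval excluded 0. A ratio was called unchanged within the counting interval of the reported value. A count of genes was called unchanged if it was equal to the reported count or within 1.5-fold of it. *Hsp83* stayed lower in all 13 alternatives of each sex. Its log2 ratio was -1.21 in females and -1.54 in males for unscaled means per nucleus, -0.66 and -1.94 when centred on the median gene, -0.642 and -2.23 after thinning to 1000 UMIs, and -0.78 and -1.93 in glial clusters. In females it was -0.646 when all nuclei were given equal totals and -0.51 in nuclei of at least 1766 UMIs. In males it was -2.42 in neuronal clusters, -2.22 with cell classes averaged with 1 set of weights, and -2.23 without the unnamed cluster mostly of exposed males, an alternative chosen after seeing the data.

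Summed *Hsp70* was -1.03 in females and 0.42 in males for unscaled means per nucleus, and 0.31 in females and -1.27 in males in glial clusters, where the counts were 20 and 21 UMIs in exposed and control females and 4 and 13 in males. Unscaled means also turned *DnaJ-1* (0.082) and *stv* (0.28) in males, *stv* in Mi1 neuron-like nuclei of females (-0.60) and *stv* in perineurial glia-like nuclei of males (0.59). Nuclei held fewer UMIs in exposed than in control females and more in exposed than in control males.

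The number of genes at least 1.5-fold lower in females, 1 as reported, was 6 for unscaled means, 2 after centring, 2 with no minimum of UMIs and 0 at 2-fold. In males, 2 as reported, it was 1 for unscaled means, after centring, with at least 500 UMIs and at 2-fold, and 3 with no minimum and with cell classes averaged. The number at least 1.5-fold higher in males was 2 with no minimum. Among all genes, 0.974% were at least 1.5-fold lower in exposed females after centring, and 12.4% in exposed males. At 2-fold these shares were 0.269% and 7.03%. Unscaled means lowered every log2 ratio in females by the same amount, which moved that of *Hsp83* from -0.58 to -1.21. The share of all genes was not computed for unscaled means, so the count of 6 is not read as particular to these genes. No paired analysis was possible because each group had 1 library and the labels carry no replicate number. The depth limits the *Hsp70* copies and *Hsp68*, of which a single library held at most 194 and 168 UMIs.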

Other observations

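A few single nuclei stood out for the heat-inducible genes. Among exposed males, a fat body-like nucleus with 7798 UMIs held 6 *Hsp70* UMIs, all from 1 copy, and no *Hsp68*, and 2 plasmatocyte-like nuclei held 4 and 3 *Hsp70* UMIs with 14 and 15 of *Hsp83*. No nucleus of exposed females held more than 2 *Hsp70* UMIs, among 25332. One neuronal nucleus of control males with 1369 UMIs in all held 10 *Hsp70* UMIs from 3 copies, 6 *Hsp68*, 9 *Hsp83*, 2 *DnaJ-1* and 3 *stv* UMIs. One neuronal nucleus of control females with 1254 UMIs in all held 10 *Hsp68*, 1 *Hsp70*, 7 *Hsp83* and 1 *stv* UMIs. In all, 5 nuclei of exposed and 9 of control females, and 10 of exposed and 4 of control males, held at least 2 *Hsp70* UMIs.

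In nuclei thinned to 1000 UMIs, *Hsp83* was found in 7 of the 36 nuclei with an *Hsp70* UMI of exposed females and in 19 of the 51 of control females, and in 6 of the 36 of exposed males and 20 of the 45 of control males. Among nuclei without an *Hsp70* UMI the shares with *Hsp83* were 20.3% in exposed and 29.9% in control females, and 9.54% in exposed and 37.9% in control males.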
